A study of Mus musculus with 11 samples.

Results

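The 32 genes described here belong to hepatic fatty acid oxidation and to the targets of PPAR-alpha, the nuclear receptor that switches this programme on. They were taken from a fixed list of symbols and fall into 4 classes: 15 mitochondrial genes, 6 peroxisomal genes, 5 microsomal or cytosolic genes and 6 regulatory or secreted genes. Of the 32, 31 had a probe set annotated to their symbol alone, among 19938 genes so measured on the arrays. Acsl1, a long-chain acyl-CoA synthetase of the microsomal and cytosolic class, had none and is not analysed here.

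Liver RNA of male mice aged 14 months was profiled on Affymetrix arrays, with 3 arrays of wild-type C57BL/6 mice, 4 of Mdr2-KO mice and 4 of Mdr2-KO/IL6-KO mice. Mdr2-KO mice lack the canalicular phospholipid transporter encoded by Abcb4, and Mdr2-KO/IL6-KO mice, called the double knockout, lack the cytokine interleukin 6 as well, so both knockout groups share the Mdr2 deletion. The wild-type arrays are labelled C57BL/6 and the labels of the knockout arrays name the genotype without a strain. No IL6-KO group with an intact Mdr2 gene is analysed here. All tissue was described as free of tumour, and all animals had commercial chow and water freely. The labels do not say that each array is a separate mouse, so p-values measure only the spread between these samples. Wild-type titles carry W numbers and knockout titles BIL numbers. The meaning of these prefixes is not stated. A difference between the numbered series, if there is one, and the effect of genotype cannot be told apart.

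The liver oxidises fatty acids mainly in mitochondria, where carnitine carries long chains across the membranes and a spiral of dehydrogenases, hydratases and thiolases shortens them. Peroxisomes shorten very long chains, and microsomal cytochromes of the Cyp4a family open an alternative route by hydroxylating the far end of the chain. PPAR-alpha, activated by fatty acids in fasting, induces genes in all these compartments as well as secreted factors such as FGF21. It binds DNA with RXR at a pair of direct repeats spaced by a single base, the DR1 element.

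Abcb4 served as the check of the labels. On the log2 scale its wild-type level was 9.83 ± 0.105 (SD, n = 3), against an Mdr2-KO level of 7.74 ± 0.194 (SD, n = 4) and a double knockout level of 8.09 ± 0.204 (SD, n = 4). It fell 4.26-fold in Mdr2-KO (limma adjusted p = 2.22e-06) and 3.34-fold in the double knockout (adjusted p = 6.75e-06). Il6 differed from wild type by a log2 change of 0.12 ± 0.0971 (SE) in the double knockout, with an adjusted p of 0.667, and so gave no check of the second deletion. None of the 8 hepatocyte markers was called in either comparison with wild type. Their mean log2 difference from wild type ran from -0.02 to 0.02 on the wild-type arrays, from -0.10 to 0.03 in Mdr2-KO and from -0.11 to -0.05 in the double knockout, which lay wholly below wild type. In the double knockout 5 of the 8 lay below wild type without overlap and 1 above, and 3 were lower at an unadjusted p under 0.05. Their summed log2 level, which the most abundant markers set, spanned 15.36 to 15.38 in wild type, 15.30 to 15.39 in Mdr2-KO and 15.30 to 15.36 in Mdr2-KO/IL6-KO. Markers of other cells moved with genotype. Of the 6 bile duct markers measured, 4 rose in each knockout, and their summed level went from 8.08 to 8.16 in wild type to 8.70 to 8.97 in Mdr2-KO and 8.71 to 9.10 in Mdr2-KO/IL6-KO. Of the 8 stellate cell and fibroblast markers, 5 rose in each, with summed levels of 10.92 to 11.16, 11.37 to 11.58 and 11.48 to 11.74 in the same order. Of 5 endothelial markers Lyve1 rose in the double knockout (log2 change 0.66 ± 0.162 (SE), adjusted p = 0.0357), and of 5 measured lymphocyte markers Cd8a fell there (-0.58 ± 0.1495, adjusted p = 0.0464), while none of either list was called in Mdr2-KO. The mean of the lymphocyte markers was -0.31 in Mdr2-KO and -0.35 in the double knockout. None of the 6 Kupffer cell and macrophage markers was called, and their mean ran from -0.87 on wild-type replicate 3 to 0.53 within wild type alone. None of the 5 adipocyte markers measured was called. In whole tissue, fewer cells of a type and less RNA per cell cannot be told apart, and the part of these other cells in the results was not tested.

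One array stood apart for the genes studied. Mdr2-KO replicate 2 was the highest of its group for 23 of the 31 measured genes, and it lay at one end of the first principal component of all probe sets (-47.2), with Mdr2-KO replicate 3 at the other end (39.5). Calls that depended on this array are therefore also given without it, together with the class medians. It was singled out in part on the values of these same genes. Lower Mdr2-KO values and a smaller spread without it thus largely follow from that choice and are no added evidence. Among wild-type arrays, replicate 3 had the highest mean in every class, and over the 31 genes it lay 0.13 above the wild-type mean. Leaving out wild-type replicate 3 gave no called member in Mdr2-KO, with 163 genes called among all 19938. All levels below are deposited log2 values, so a difference of 1 corresponds to a doubling. The median of all probe sets ran from 5.09 on Mdr2-KO replicate 3 to 5.23 on Mdr2-KO replicate 2. Fgf21 had values near it in both knockouts, Acot1 on Mdr2-KO arrays, Acot3 in all groups, and Pdk4 in wild type and on Mdr2-KO replicate 1. Ppargc1a had values near it in wild type, and the means of its second probe set lay below it. Whether such low signals exceed background was not tested. A gene was called changed at a Benjamini-Hochberg adjusted p under 0.05 over all 19938 genes, in a limma model of all 11 arrays.

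In Mdr2-KO livers most of the measured genes lay below wild type, with the clearest single decrease in Fgf21. The peroxisomal genes had no common direction, and a shift of the whole set was not tested. Of the 31 genes, 26 had a log2 change below 0 and 5 above it, with a median of -0.25 and a range from -1.50 for Cyp4a14 to 0.41 for Pdk4. Over all genes tested, the median change was -0.01 and 51.7% lay below 0. After adjustment 1 of the 31 was called, Fgf21, which fell, against 1.26% of all genes called in either direction. For 9 of the 31 every Mdr2-KO array lay below every wild-type array and for none above. Groups did not overlap for 9.13% of all genes in either direction, and for 3.64% of all genes on the lower side.

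In Mdr2-KO/IL6-KO livers Fgf21 and Fabp1 fell and Pdk4 rose. Here 21 genes lay below wild type and 10 above, with a median log2 change of -0.10 and a range from -1.91 for Cyp4a14 to 1.17 for Pdk4, beside a median of -0.00 and 50.2% below 0 over all genes. The 3 called members stand against 4.19% of all genes called. Groups did not overlap for 9 members on the lower side and 1 on the higher side, against 16.3% of all genes in either direction and 6.44% on the lower side. Both comparisons used the same 3 wild-type arrays, so their values are set side by side and not counted as separate evidence.

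**Figure D1:**
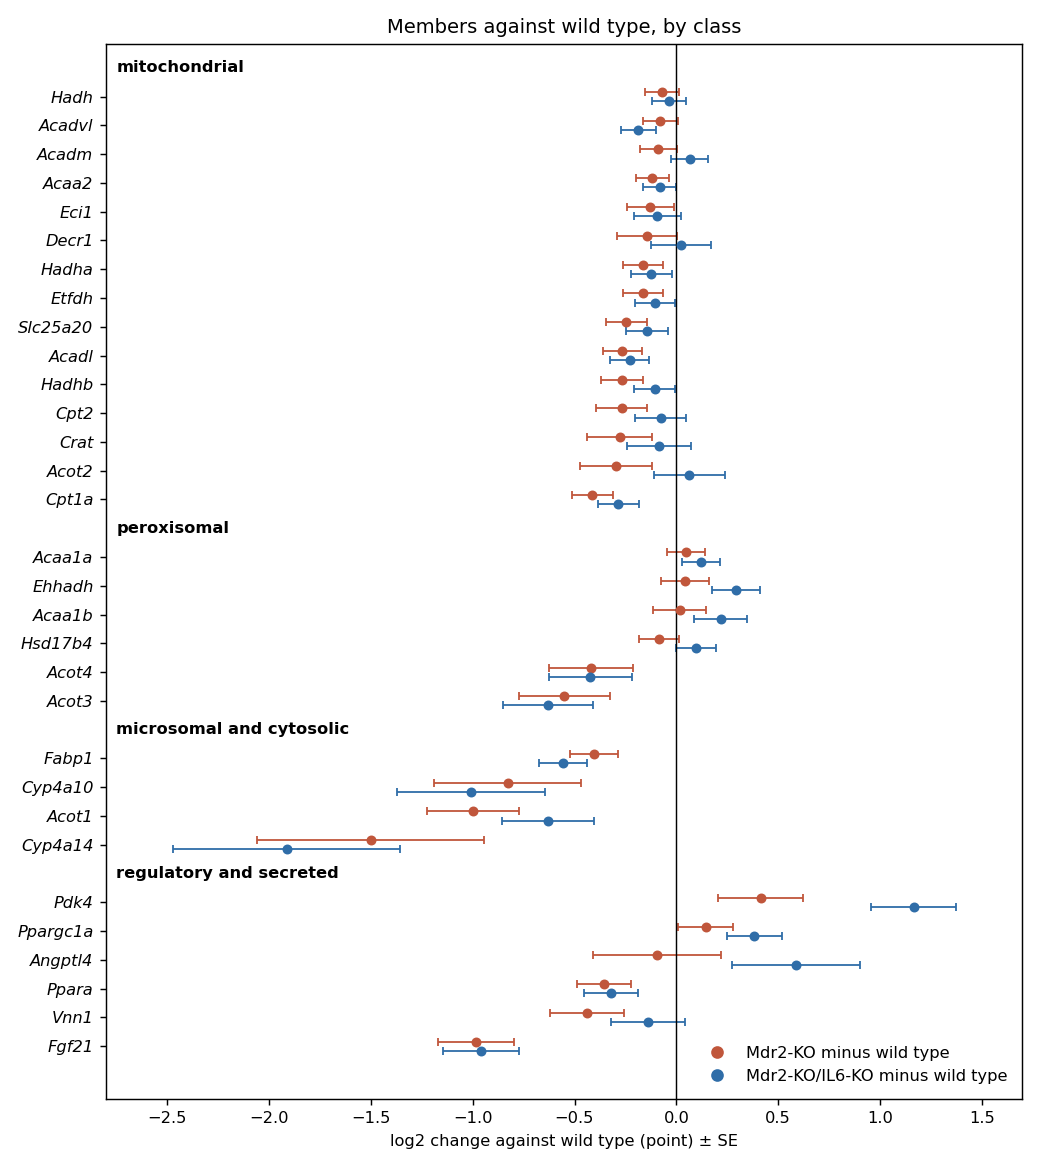
Log2 change from wild type with its SE for the 31 measured genes, grouped by class, in Mdr2-KO and in the double knockout. Cyp4a14 lies farthest to the low side in both comparisons, at -1.50 and -1.91, and Pdk4 farthest to the high side, at 0.41 and 1.17.

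Promoter sequence is shown for Fgf21, Fabp1 and Pdk4 because they are the 3 genes called in any comparison. Each line gives the 250 bases before the annotated start of transcription, 5′ to 3′ on the gene's strand, from RefSeq (GRCm38.p6): Fgf21 at chr7:45615491-45615740 on the minus strand, Fabp1 at chr6:71199629-71199878 on the plus strand and Pdk4 at chr6:5496279-5496528 on the minus strand. Capitals mark a match to the DR1 element with at most 1 mismatch.
Fgf21: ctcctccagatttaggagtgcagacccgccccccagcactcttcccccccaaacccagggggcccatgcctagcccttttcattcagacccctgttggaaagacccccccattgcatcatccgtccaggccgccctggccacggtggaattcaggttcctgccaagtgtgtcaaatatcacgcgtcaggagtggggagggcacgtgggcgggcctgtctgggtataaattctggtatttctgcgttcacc
Fabp1: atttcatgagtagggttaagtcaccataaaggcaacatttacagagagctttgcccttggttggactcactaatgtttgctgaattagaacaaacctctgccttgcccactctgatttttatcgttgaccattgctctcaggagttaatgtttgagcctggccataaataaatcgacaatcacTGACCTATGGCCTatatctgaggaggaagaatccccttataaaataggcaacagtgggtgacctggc
Pdk4: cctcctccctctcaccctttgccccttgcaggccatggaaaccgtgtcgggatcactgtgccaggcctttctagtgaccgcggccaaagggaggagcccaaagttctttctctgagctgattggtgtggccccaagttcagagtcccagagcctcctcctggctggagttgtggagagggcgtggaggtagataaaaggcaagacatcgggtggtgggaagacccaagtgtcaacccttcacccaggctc

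The DR1 element was searched as AGGTCANAGGTCA on both strands (TGACCTNTGACCT on the other), with at most 1 mismatch among its 12 defined letters, in windows from 250 bases before to 50 after each start. RefSeq windows matched 24 of the 32 genes, with 26 windows in all. Fabp1 held the 1 match among them, 3.85% of the 26, at positions -67 to -55 from the start and in the orientation opposite to the gene. This match is inexact, with 1 mismatch. Of 32851 windows of the same length in the table, 182 held such a match (0.554%) and 13 an exact one. The half-site AGGTCA, which is part of the DR1 element, stood in 7 of the 26 windows (26.9%) and in 16.3% of all windows. A match describes letters in a window and is not a measured binding site. The windows of the neighbouring genes Hadha and Hadhb overlap by 228 bases. Both windows of Acot3, which start at chr12:84051894 and chr12:84051901, overlap almost wholly. They share their half-site and are both counted among the 7.

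Among the regulatory and secreted genes, Fgf21 stood out by falling in both knockouts. Fgf21 encodes a hormone that the liver releases in fasting and that acts on fat tissue and brain. Its wild-type arrays read 6.32, 6.29 and 6.995, the Mdr2-KO arrays 5.44, 6.03, 5.36 and 5.37, and the Mdr2-KO/IL6-KO arrays 5.70, 5.46, 5.68 and 5.46. Every knockout array lay below every wild-type array. The decrease in Mdr2-KO was 1.97-fold (a log2 change of -0.98 ± 0.187 (SE) with adjusted p = 0.0191) and 1.94-fold in the double knockout (-0.96 ± 0.187, adjusted p = 0.0104). Without Mdr2-KO replicate 2, the highest array of that group, the change in Mdr2-KO was -1.14 with an adjusted p of 0.00311. The Mdr2-KO call was lost without wild-type replicate 3, whose value was the highest of all 11 arrays, and without Mdr2-KO replicate 1, 3 or 4.

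Pdk4 encodes a kinase that shuts off pyruvate dehydrogenase and so spares glucose while fat is burned. Its wild-type arrays read 5.53, 5.86 and 5.61, its Mdr2-KO arrays 5.42, 6.34, 6.21 and 6.36, and its double knockout arrays 6.51, 6.72, 7.03 and 7.08. The double knockout arrays lay above all others. Pdk4 rose 2.24-fold in the double knockout over wild type (log2 change 1.17 ± 0.208 (SE), adjusted p = 0.00583). In Mdr2-KO the change was 0.41 ± 0.208 with an adjusted p of 0.559, and the groups overlapped because of replicate 1. Without that array the Mdr2-KO change was 0.63, with an adjusted p of 0.0765. Fgf21 and Pdk4 are both known as fasting-induced targets of PPAR-alpha, and in the double knockout the first fell and the second rose.

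The 4 remaining regulatory and secreted genes were not called in either comparison. Ppara, the receptor itself, read 9.21, 9.49 and 9.41 in wild type, against 9.23, 9.06, 8.92 and 8.85 in Mdr2-KO and 9.08, 9.17, 8.72 and 9.23 in the double knockout. Its log2 changes were -0.36 ± 0.132 (adjusted p = 0.328) and -0.32 ± 0.132 (adjusted p = 0.246). In both knockouts only the highest array reached the range of wild type. Ppargc1a, a coactivator of PPAR-alpha and of mitochondrial biogenesis, read 5.37, 5.91 and 5.54 in wild type, against 5.79, 5.54, 5.88 and 5.81 in Mdr2-KO and 6.21, 6.04, 5.81 and 5.91 in the double knockout. Its changes were 0.14 ± 0.136 (adjusted p = 0.850) and 0.38 ± 0.136 (adjusted p = 0.165). A second probe set of Ppargc1a, dimmer than the one used, had means of 3.91, 4.39 and 4.47 in the same order of groups.

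Angptl4, a secreted inhibitor of lipoprotein lipase, varied widely within every group. It read 8.15, 7.46 and 8.35 in wild type, against 7.41, 8.62, 7.71 and 7.82 in Mdr2-KO and 8.98, 9.11, 8.16 and 8.04 in the double knockout. The log2 changes were -0.10 ± 0.315 (adjusted p = 0.972) and 0.59 ± 0.315 (adjusted p = 0.421), so the groups could not be separated from the spread. Vnn1, a pantetheinase of the coenzyme A cycle, read 9.30, 9.18 and 9.71 in wild type and 9.12, 9.01, 8.68 and 9.03 in Mdr2-KO, with no overlap. The double knockout arrays read 9.43, 9.22, 8.79 and 9.61. Its changes were -0.44 ± 0.183 (adjusted p = 0.426) and -0.14 ± 0.183 (adjusted p = 0.824).

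**Figure D2:**
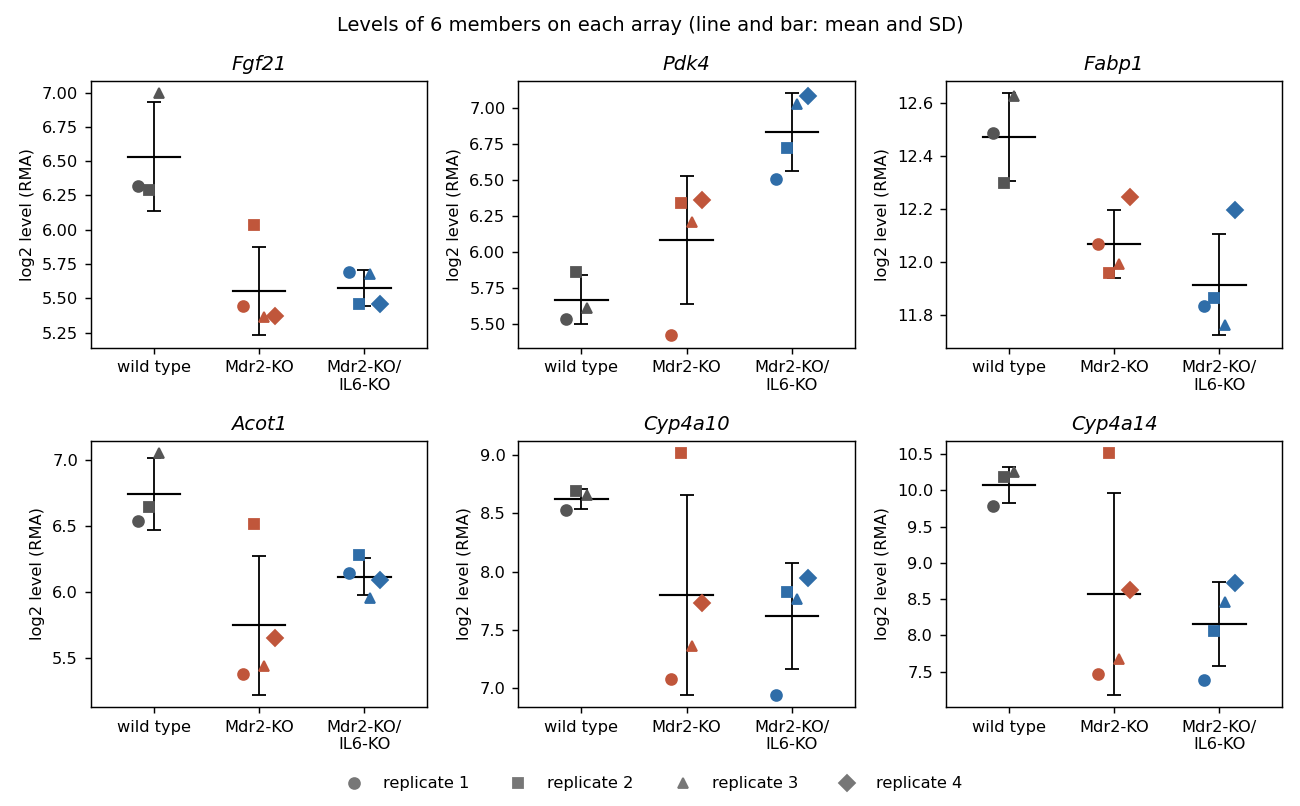
Deposited log2 values of Fgf21, Pdk4, Fabp1, Acot1, Cyp4a10 and Cyp4a14 on each of the 11 arrays, by genotype, with the mean and SD of each group. Mdr2-KO replicate 2 sits with or above wild type for both Cyp4a genes, at 9.02 and 10.52, while the other Mdr2-KO arrays lie below it, and Pdk4 is highest in Mdr2-KO/IL6-KO.

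The microsomal and cytosolic genes had the lowest class median in both knockouts, -0.91 in Mdr2-KO and -0.82 in the double knockout. All 4 measured genes lay below wild type in both comparisons, and 1 call was made, for Fabp1 in the double knockout. Fabp1 is the liver fatty acid-binding protein, which carries fatty acids through the cytosol. Its wild-type arrays read 12.49, 12.30 and 12.63, the Mdr2-KO arrays 12.07, 11.96, 11.99 and 12.25, and the Mdr2-KO/IL6-KO arrays 11.84, 11.87, 11.76 and 12.20. No knockout array reached the lowest wild-type value. Fabp1 fell 1.47-fold in the double knockout (log2 change -0.56 ± 0.120 (SE), adjusted p = 0.0181), and the change in Mdr2-KO was -0.40 ± 0.120 with an adjusted p of 0.164. The Fabp1 call was lost without wild-type replicate 1 or 3 and without double knockout replicate 1, 2 or 3, where the highest adjusted p was 0.0965.

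Acot1, a cytosolic thioesterase that frees fatty acids from coenzyme A, read 6.54, 6.64 and 7.06 in wild type. The Mdr2-KO arrays read 5.37, 6.52, 5.44 and 5.65, and the Mdr2-KO/IL6-KO arrays 6.14, 6.28, 5.95 and 6.09. All 8 knockout arrays lay below wild type, Mdr2-KO replicate 2 by the least. The Mdr2-KO change of -1.0004 ± 0.226 (SE) had an adjusted p of 0.05003, just outside the threshold, with a 95% interval from -1.49 to -0.51. The double knockout change was -0.63 ± 0.226, with an adjusted p of 0.171. Acot1, Acot2, Acot3 and Acot4 are adjacent and closely similar genes on chromosome 12, so signal shared between their probe sets was not tested and their separate values are uncertain.

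Cyp4a10 and Cyp4a14 are fatty acid omega-hydroxylases and textbook responders to PPAR-alpha agonists. Cyp4a14 read 9.78, 10.18 and 10.25 in wild type, against 7.47, 10.52, 7.67 and 8.62 in Mdr2-KO and 7.38, 8.06, 8.46 and 8.73 in the double knockout. The Mdr2-KO group was split, with replicate 2 above all wild-type arrays and the other 3 below them. Its log2 changes were -1.50 ± 0.558 (SE) in Mdr2-KO (adjusted p = 0.332) and -1.91 ± 0.558 in the double knockout (adjusted p = 0.0802). Cyp4a10 read 8.53, 8.69 and 8.66 in wild type, against 7.08, 9.02, 7.36 and 7.73 in Mdr2-KO and 6.94, 7.83, 7.76 and 7.94 in the double knockout. Its changes were -0.83 ± 0.361 (adjusted p = 0.463) and -1.01 ± 0.361 (adjusted p = 0.170). Both genes had the same array out of line in Mdr2-KO, and neither overlapped wild type in the double knockout.

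Leaving out Mdr2-KO replicate 2 changed the calls of this class. The array was singled out on high values of the genes studied, so the adjusted p-values without it are descriptive only. Cyp4a14 then fell by 2.15 on the log2 scale in Mdr2-KO (adjusted p = 0.00517), Cyp4a10 by 1.24 (adjusted p = 0.0154) and Acot1 by 1.26 (adjusted p = 0.000521). With Fgf21 this made 4 called genes in place of 1, while the genes called among all 19938 went from 252 to 323. In the double knockout the estimates did not depend on that array, but the spread shared by all groups did. Without it, Cyp4a14 (adjusted p = 0.00329), Cyp4a10 (adjusted p = 0.0168) and Acot1 (adjusted p = 0.0140) were called lower there as well, for 6 called members in place of 3. Genes called among all 19938 went from 836 to 989. The same 6-member count was obtained when the double knockout was compared with wild type alone. That fit holds no Mdr2-KO array, replicate 2 included, and so is no separate evidence. Mdr2-KO compared with wild type alone gave no called member. Leaving out Mdr2-KO replicates 2 and 3 together, the arrays at both ends of the first component, gave 3 called genes in Mdr2-KO and 6 in the double knockout.

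Without replicate 2, which was singled out for its high values of most genes, the class medians in Mdr2-KO moved further from wild type. They were then -1.25 for the microsomal and cytosolic genes, -0.24 for the mitochondrial genes, -0.07 for the peroxisomal genes and -0.35 for the regulatory and secreted genes, and the median of all 31 was -0.29. Among uncalled genes, Decr1 went to -0.27, Eci1 to -0.22, Acadvl to -0.12, Hsd17b4 to -0.13 and Angptl4 to -0.34. Not all genes moved down, as Hadhb went from -0.268 to -0.241 and Acaa1a from 0.046 to 0.054. Ppargc1a went to 0.22, while Ehhadh and Acaa1b lay within 0.01 of wild type.

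Cyp4a10 and Cyp4a14 are neighbours on chromosome 4 and resemble other Cyp4a genes. A probe set shared by Cyp4a10, Cyp4a31 and Cyp4a32, which was not used in the tests, read 9.50, 9.47 and 9.68 in wild type. It read 8.09, 9.73, 8.38 and 8.85 in Mdr2-KO and 7.89, 8.71, 8.61 and 8.90 in the double knockout. The array that stood apart for Cyp4a10 thus stood apart there too.

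Mitochondrial genes lay below wild type by small amounts and none was called. In Mdr2-KO all 15 had a log2 change below 0, with a median of -0.16 and a range from -0.41 for Cpt1a to -0.07 for Hadh. In Mdr2-KO/IL6-KO 12 of 15 were below 0, with a median of -0.09. Arrays lay below wild type without overlap for 5 of the 15 in Mdr2-KO, where 3.64% of all genes did, and for 3 of the 15 in the double knockout, where 6.44% of all genes did. Over the 15 genes the mean difference from wild type was -0.23, -0.00, -0.33 and -0.24 on the 4 Mdr2-KO arrays and -0.06, -0.03, -0.22 and -0.06 on the 4 double knockout arrays. Wild-type arrays themselves ran from -0.05 to 0.07, so Mdr2-KO replicate 2 lay inside their range and the other Mdr2-KO arrays below it.

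Cpt1a, the gate of long-chain fatty acids into mitochondria and the main control point of the pathway, had the largest change of the class. It read 10.42, 10.62 and 10.43 in wild type, against 10.15, 10.15, 10.12 and 9.89 in Mdr2-KO and 10.18, 10.34, 10.04 and 10.27 in the double knockout. No knockout array reached the wild-type range. The changes were -0.41 ± 0.102 (SE, adjusted p = 0.0790) and -0.28 ± 0.102 (adjusted p = 0.170). Downstream of Cpt1a in the carnitine shuttle, Slc25a20, the carnitine carrier of the inner membrane, changed by -0.25 and -0.14 and Cpt2, the inner membrane transferase, by -0.27 and -0.08. Crat, which handles acetyl and other short acyl groups, had changes of -0.28 and -0.09.

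The acyl-CoA dehydrogenases carry out the first step of each turn, each for its own chain length. Acadl, for long chains, read 9.72, 9.65 and 9.86 in wild type, against 9.54, 9.61, 9.33 and 9.43 in Mdr2-KO and 9.57, 9.55, 9.37 and 9.58 in the double knockout. Both knockout groups lay wholly below wild type, by -0.27 ± 0.0957 (SE, adjusted p = 0.311) and -0.23 ± 0.0957 (adjusted p = 0.259). Acadvl, for very long chains, read 9.69, 9.77 and 9.81 in wild type, against 9.68, 9.80, 9.58 and 9.64 in Mdr2-KO and 9.50, 9.58, 9.49 and 9.69 in the double knockout. Its changes were -0.08 ± 0.0861 (adjusted p = 0.879) and -0.19 ± 0.0861 (adjusted p = 0.317). Acadm, for medium chains, read 10.86, 10.92 and 10.88 in wild type, against 10.84, 10.93, 10.68 and 10.75 in Mdr2-KO and 11.01, 11.08, 10.82 and 10.90 in the double knockout. The groups overlapped, with changes of -0.09 ± 0.0905 (adjusted p = 0.868) and 0.07 ± 0.0905 (adjusted p = 0.828). Etfdh, which passes electrons from all these dehydrogenases to the respiratory chain, had changes of -0.16 and -0.10.

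Hadha and Hadhb encode both subunits of the trifunctional protein, which completes the turn for long chains. Hadhb read 10.13, 9.98 and 10.28 in wild type, against 9.83, 9.78, 9.96 and 9.87 in Mdr2-KO and 10.16, 9.99, 9.82 and 10.11 in the double knockout. Only the Mdr2-KO group lay apart from wild type, by -0.27 ± 0.103 (SE, adjusted p = 0.361), while the double knockout changed by -0.11 ± 0.103 (adjusted p = 0.730). A second Hadhb probe set had means of 10.01, 9.73 and 9.88 in wild type, Mdr2-KO and Mdr2-KO/IL6-KO. Hadha changed by -0.16 and -0.12. Hadha and Hadhb lie 3 and 4 protein-coding genes from Il6 on chromosome 5, and the effect of DNA flanking the targeted Il6 allele was not tested.

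The other enzymes of the mitochondrial class had smaller changes or a wider spread. Hadh and Acaa2, the dehydrogenase and thiolase for shorter chains, changed by -0.07 and -0.12 in Mdr2-KO and by -0.04 and -0.08 in the double knockout. Decr1 and Eci1, auxiliary enzymes for unsaturated fatty acids, changed by -0.15 and -0.13 in Mdr2-KO and by 0.02 and -0.09 in the double knockout. Acot2, a mitochondrial thioesterase, read 7.01, 6.82 and 7.08 in wild type, against 6.26, 7.10, 6.44 and 6.89 in Mdr2-KO and 7.22, 7.06, 6.79 and 7.06 in the double knockout. It spread more widely in Mdr2-KO than in the other groups, and its changes were -0.30 ± 0.175 (adjusted p = 0.660) and 0.06 ± 0.175 (adjusted p = 0.925).

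Peroxisomal genes had no common direction, with class medians of -0.03 in Mdr2-KO and 0.11 in the double knockout, and none of the 6 was called. Ehhadh, the bifunctional enzyme of the inducible peroxisomal pathway, read 9.57, 9.89 and 9.51 in wild type, against 9.49, 9.81, 9.76 and 9.73 in Mdr2-KO and 10.01, 9.999, 9.75 and 10.05 in the double knockout. Its log2 changes were 0.04 ± 0.117 (SE, adjusted p = 0.965) and 0.29 ± 0.117 (adjusted p = 0.229). In the double knockout 3 of 4 arrays lay above wild type. Hsd17b4, the other bifunctional enzyme, which also serves bile acid synthesis, read 10.83, 10.93 and 10.85 in wild type. It read 10.94, 10.92, 10.61 and 10.66 in Mdr2-KO and 11.001, 11.05, 10.91 and 10.89 in the double knockout. The groups overlapped, with changes of -0.08 ± 0.0984 (adjusted p = 0.893) and 0.10 ± 0.0984 (adjusted p = 0.745). The thiolases Acaa1a and Acaa1b changed by 0.05 and 0.02 in Mdr2-KO and by 0.12 and 0.22 in the double knockout.

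The peroxisomal thioesterases Acot3 and Acot4, which release shortened acyl chains for export, had the lowest values of their class. Acot3 read 5.53, 5.35 and 6.33 in wild type, against 5.32, 5.64, 5.05 and 4.75 in Mdr2-KO and 5.18, 5.08, 4.94 and 5.23 in the double knockout. Wild-type replicate 3 lay far above the other arrays, and the double knockout arrays lay below all of wild type. The changes were -0.55 ± 0.223 (SE, adjusted p = 0.404) and -0.63 ± 0.223 (adjusted p = 0.164). Acot4 read 7.20, 7.28 and 7.86 in wild type, against 6.71, 7.37, 7.12 and 6.91 in Mdr2-KO and 7.33, 7.01, 6.55 and 7.20 in the double knockout. Here too wild-type replicate 3 was the highest array, and both changes were -0.42 ± 0.206 (adjusted p = 0.543 and 0.359). Without wild-type replicate 3 the Acot4 changes were both -0.21, and those of Acot3 were -0.25 in Mdr2-KO and -0.33 in the double knockout.

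**Figure D3:**
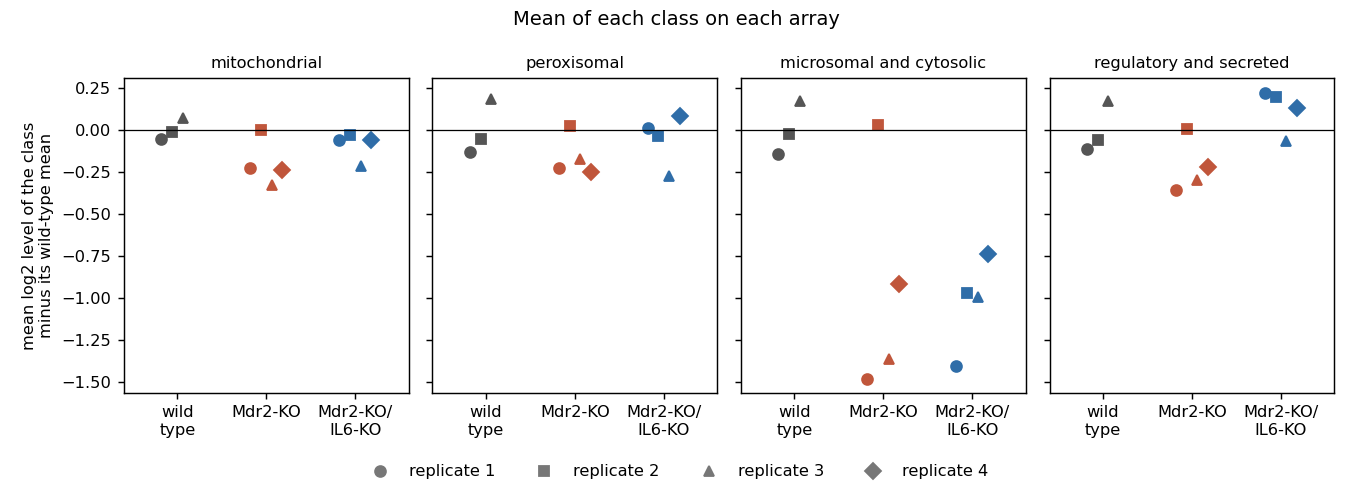
Mean difference from the wild-type mean, in log2 units, over the measured genes of each class on each of the 11 arrays. In the microsomal and cytosolic class Mdr2-KO replicate 2 lies at 0.03 while the other Mdr2-KO arrays lie between -1.48 and -0.92 and the Mdr2-KO/IL6-KO arrays between -1.40 and -0.74.

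Class means on single arrays showed where the classes parted. In the microsomal and cytosolic class they were -1.48, 0.03, -1.36 and -0.92 on the Mdr2-KO arrays and -1.40, -0.97, -0.99 and -0.74 on the Mdr2-KO/IL6-KO arrays. Replicate 2 of Mdr2-KO was the only knockout array within the wild-type range of -0.14 to 0.17. In the regulatory and secreted class the Mdr2-KO arrays read -0.36, 0.00, -0.30 and -0.22 and the double knockout arrays 0.22, 0.19, -0.06 and 0.13. Wild-type arrays ran from -0.11 to 0.17 there, so 3 Mdr2-KO arrays lay below their range, 2 double knockout arrays lay above it and the others lay inside it. Peroxisomal means ran from -0.25 to 0.02 in Mdr2-KO and from -0.27 to 0.08 in Mdr2-KO/IL6-KO, and both groups overlapped wild type, which ran from -0.13 to 0.19.

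The direct comparison of the knockouts asks what the loss of interleukin 6 adds to the loss of Mdr2. No member was called, where 1 of 19938 genes (0.00502%) was called at all. At an unadjusted p under 0.05, 4 members were higher in the double knockout and none lower, and 961 genes of all (4.82%) passed in either direction. Of the 31 genes 25 lay above 0 and 6 below, with a median of 0.10, beside a median of 0.01 and 46.1% below 0 over all genes. Arrays did not overlap for 1 member, Pdk4, against 2.51% of all genes.

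Pdk4 was 0.75 ± 0.192 (SE) higher in Mdr2-KO/IL6-KO than in Mdr2-KO on the log2 scale, with an adjusted p of 0.657 and a 95% interval of 0.34 to 1.17. This difference was 0.84 without Mdr2-KO replicate 2 and 0.53 without Mdr2-KO replicate 1, the lowest array of its group. Angptl4 differed by 0.68 ± 0.292 (0.05 to 1.31), Acot2 by 0.36 ± 0.162 (0.01 to 0.71) and Ehhadh by 0.25 ± 0.108 (0.02 to 0.49). These 4 are the genes whose intervals lay above 0, and apart from Pdk4 their arrays overlapped. Fgf21 differed by 0.02 ± 0.173 (-0.35 to 0.40) and Fabp1 by -0.15 ± 0.111 (-0.39 to 0.09), so at this precision a difference of these sizes could not be told from none.

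By class, medians of the double knockout over Mdr2-KO were 0.10 for the mitochondrial genes, 0.13 for the peroxisomal genes, -0.17 for the microsomal and cytosolic genes and 0.27 for the regulatory and secreted genes. In the mitochondrial class 14 of 15 genes lay above 0, among them Cpt1a at 0.13 ± 0.0942 (SE) and Acadm at 0.16 ± 0.0838. All 6 regulatory and secreted genes lay above 0, from 0.02 for Fgf21 and 0.04 for Ppara to 0.75 for Pdk4. The microsomal and cytosolic median rested on Mdr2-KO replicate 2 and was 0.23 without it. Cyp4a14 differed by -0.41 ± 0.516 (-1.52 to 0.70) with all arrays and by 0.24 without replicate 2, and Cyp4a10 by -0.18 ± 0.335 (-0.90 to 0.54) and 0.23. Acot1, at 0.37 ± 0.209 (-0.08 to 0.82) with all arrays, was at 0.63 without replicate 2, with an adjusted p of 0.301. Without that array 29 of the 31 genes lay above 0, with a median of 0.17. It was the highest Mdr2-KO array for 23 of the 31, so for these genes the upward move was fixed by leaving it out.

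**Figure D4:**
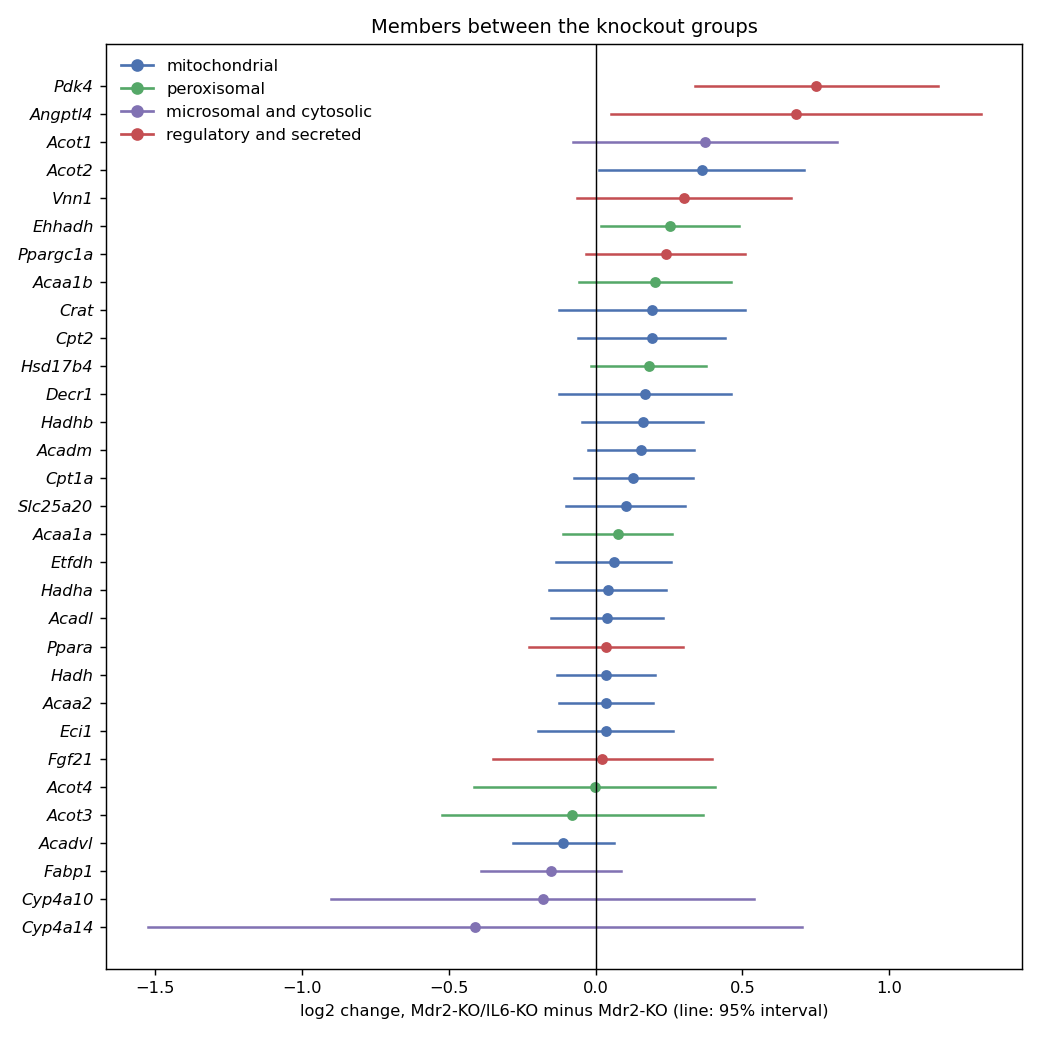
Log2 change of Mdr2-KO/IL6-KO over Mdr2-KO with its 95% interval for the 31 measured genes, ordered by change and coloured by class. Intervals lie above 0 for Pdk4, Angptl4, Acot2 and Ehhadh, and none of the 31 genes was called after adjustment.

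A wider list of 68 genes of the same processes, of which 60 were measured, gave 5 calls, all in the double knockout. None was called in Mdr2-KO, where 1.26% of all genes were. At an unadjusted p under 0.05, 10 were lower and 3 higher there, beside 9.79% of all genes in either direction, and the median change was -0.06. In Mdr2-KO/IL6-KO 3 were called higher and 2 lower, beside 4.19% of all genes called, with a median of -0.00. None was called between the knockouts, with 4 higher and none lower before adjustment, beside 4.82% of all genes. In the lists for uptake and activation 1 of 8 measured genes was called, in omega oxidation 2 of 6, in other mitochondrial oxidation 1 of 12 and among other PPAR-alpha targets 1 of 8, all in the double knockout. No gene was called among 2 of ketone body synthesis, 13 of other peroxisomal oxidation and biogenesis or 11 receptor partners, coregulators and FGF21 receptor genes.

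Within omega oxidation the called genes went the opposite way from the Cyp4a10 and Cyp4a14 values. Cyp4a12b, an omega-hydroxylase known for its higher expression in male mice, read 10.09, 9.71 and 9.91 in wild type, against 10.77, 9.97, 9.92 and 10.37 in Mdr2-KO and 10.63, 10.50, 10.60 and 10.74 in the double knockout. It rose 1.64-fold in the double knockout (log2 change 0.71 ± 0.173 (SE), adjusted p = 0.0346). Cyp4f15, of a related subfamily, read 9.24, 9.37 and 9.48 in wild type, against 9.77, 9.47, 9.72 and 9.60 in Mdr2-KO and 9.70, 9.88, 9.62 and 9.81 in the double knockout, where it rose 1.31-fold (adjusted p = 0.0492). In Mdr2-KO the changes were 0.35 ± 0.173 for Cyp4a12b (adjusted p = 0.540) and 0.27 ± 0.102 for Cyp4f15 (adjusted p = 0.333). Cyp4a31, named after its values were seen, had changes of -0.92 ± 0.326 in Mdr2-KO (adjusted p = 0.293) and -1.03 ± 0.326 in the double knockout (adjusted p = 0.109). The Cyp4a values thus lay on both sides of wild type, but of these genes only Cyp4a12b was called. Signal shared between the probe sets of similar Cyp4a genes was not tested.

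Hsd17b11, a lipid droplet dehydrogenase known as a PPAR-alpha target, read 9.22, 9.20 and 9.19 in wild type, against 9.77, 9.43, 9.62 and 9.43 in Mdr2-KO and 9.61, 9.64, 9.58 and 9.69 in the double knockout. Both knockout groups lay above wild type, and the rise was 1.34-fold in the double knockout (adjusted p = 0.0197). The change in Mdr2-KO was 0.36 ± 0.0933 (SE) with an adjusted p of 0.0958. Of the 8 other PPAR-alpha targets measured, 2 were lower and 1 higher at an unadjusted p under 0.05 in each knockout. The median change of that list was -0.19 in Mdr2-KO and 0.05 in the double knockout. Eci2, an enoyl-CoA isomerase found in peroxisomes and mitochondria, read 9.45, 9.53 and 9.64 in wild type, against 9.29, 9.21, 9.04 and 9.06 in Mdr2-KO and 9.21, 9.13, 8.98 and 9.28 in the double knockout. No knockout array reached wild type, and Eci2 fell 1.31-fold in the double knockout (adjusted p = 0.0436), beside a change of -0.39 ± 0.0993 in Mdr2-KO (adjusted p = 0.0899). Acsl5, an acyl-CoA synthetase that activates fatty acids, read 10.68, 10.91 and 10.63 in wild type, against 10.21, 10.55, 10.41 and 10.41 in Mdr2-KO and 10.36, 10.39, 10.26 and 10.37 in the double knockout. It fell 1.32-fold in the double knockout (adjusted p = 0.0396), beside a change of -0.34 in Mdr2-KO (adjusted p = 0.146). Each of these 5 calls was lost on leaving out any single wild-type array, where the adjusted p reached 0.0761 for Hsd17b11, 0.145 for Cyp4a12b, 0.170 for Acsl5, 0.183 for Eci2 and 0.207 for Cyp4f15.

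In the 3 lists without a call, the gene with the lowest p stayed short of the threshold. Rxra, the partner with which PPAR-alpha binds DNA, read 9.43, 9.65 and 9.41 in wild type, against 9.27, 9.26, 9.44 and 8.98 in Mdr2-KO and 9.01, 9.26, 9.18 and 9.20 in the double knockout. Its changes were -0.26 ± 0.113 (SE, adjusted p = 0.462) and -0.33 ± 0.113 (adjusted p = 0.143), with no overlap in the double knockout. Abcd2, a peroxisomal importer of very long chains, read 7.59, 7.60 and 7.50 in wild type, against 6.41, 6.95, 7.12 and 7.66 in Mdr2-KO and 6.86, 6.60, 6.68 and 7.12 in the double knockout. The double knockout arrays lay below all of wild type, with changes of -0.53 ± 0.217 (adjusted p = 0.418) and -0.75 ± 0.217 (adjusted p = 0.0781). Bdh1, the last enzyme of ketone body synthesis, changed by -0.26 ± 0.0917 (adjusted p = 0.291) and -0.23 ± 0.0917 (adjusted p = 0.234). Only 2 of the 4 genes listed for ketone body synthesis were measured, and both lay below wild type without overlap in each knockout. Over all genes, 3.64% lay so in Mdr2-KO and 6.44% in the double knockout.

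**Figure D5:**
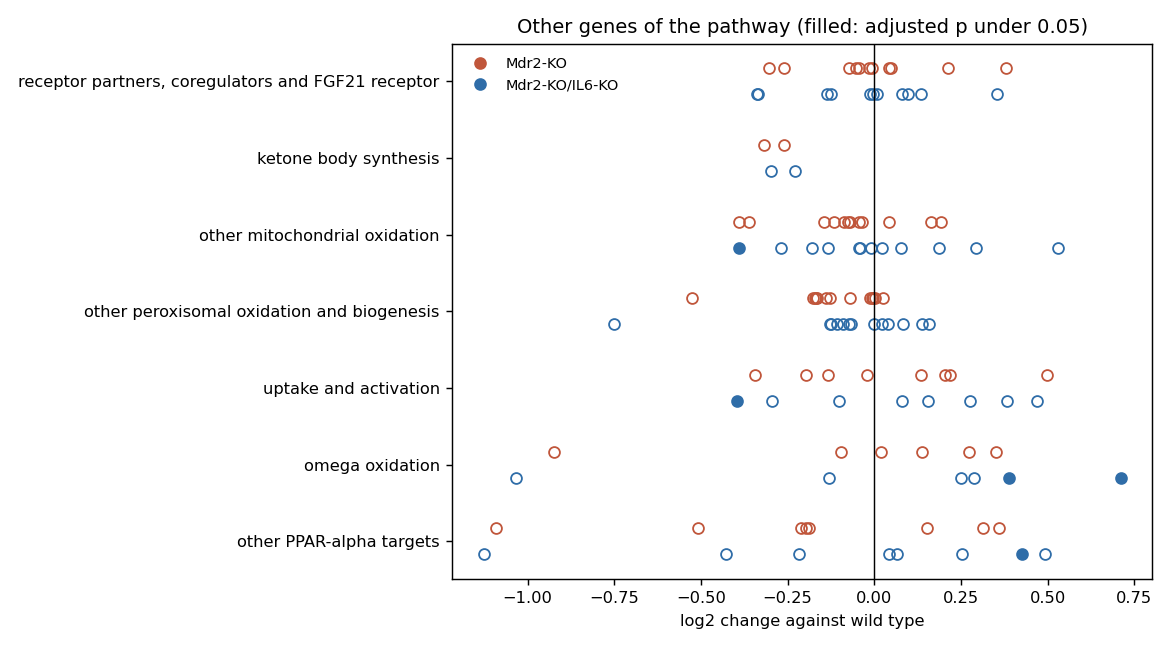
Log2 change from wild type of the 60 other measured genes of fatty acid metabolism, by list, in Mdr2-KO and Mdr2-KO/IL6-KO, with filled points for called genes. The 5 filled points are Cyp4a12b, Cyp4f15 and Hsd17b11 on the higher side and Eci2 and Acsl5 on the lower side, all in Mdr2-KO/IL6-KO.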

How the data were processed

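The authors deposited log2 values for 35557 probe sets on 11 arrays, for which the submitters' processing notes name RMA and Partek. Versions and settings are not given in the sources used here. They were used without further normalization. Of the probe sets, 21789 had 1 gene symbol, 1621 several and 12147 none. Symbols were updated by Entrez identifier against RefSeq (GRCm38.p6), which matched 19856 of 19938 genes. Each gene was represented by its probe set with the highest mean.

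Groups were compared with limma 3.58.1 in R 4.3.3, as 1 linear model of 11 arrays with a mean per group, eBayes moderation (13.3 total degrees of freedom, 8 residual) and Benjamini-Hochberg adjustment. Tests are two-sided. The procedure was tested on simulated data. Promoter windows and plots were made with Python 3.11.15 and matplotlib 3.10.9.

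The members and lists were chosen with earlier results of these data known. Values on every array are given for called members and, within each class, for the 3 with the lowest p in each comparison with wild type and the 2 with the lowest p between the knockouts. Of other lists, called genes are named, or else the gene with the lowest p in a comparison with wild type. Alternatives were other probe set rules, scalings, variance models and left-out arrays. The number of arrays limits the precision.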

Additional observations from a re-analysis of the deposited data

Results flagged for a closer look

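For each of the 31 genes, the 4 arrays of each knockout group were checked for a single array far from the other 3, and 6 of 62 groups had one by Dixon's criterion. About 1 in 20 groups is picked out in this way by chance. In Mdr2-KO, Fgf21 was highest on replicate 2 at 6.03, with the next array at 5.44, and Pdk4 was lowest on replicate 1 at 5.42, with the next at 6.21. Cpt1a was lowest on Mdr2-KO replicate 4 at 9.89, with the next at 10.12. Acaa1b, a peroxisomal thiolase, was lowest on Mdr2-KO replicate 1 at 10.06, with the next at 10.27. In Mdr2-KO/IL6-KO the array was replicate 3 each time. Acadl was lowest there at 9.37, with the next array at 9.55, and Ehhadh at 9.75, with the next at 9.999.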

How the results depend on the processing

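For the 31 members and the 5 called genes of the wider list, no change that passed the threshold turned direction under the alternatives run. The cell type markers and Abcb4 were not run under them. In Mdr2-KO against wild type, 1 member was called, and 3 with only genes above the median gene, 2 with probe sets averaged per gene, quantile normalization, median centring or eBayes with trend and robust settings, 0 with an unmoderated model, with only both groups compared or at an adjusted p under 0.01, and 3 without Mdr2-KO replicates 2 and 3 together. Leaving out 1 array gave 0 to 4. In this comparison Acot1 was called under 6 of 19 alternatives, among them quantile normalization and median centring. Cpt1a was called under 2, with only genes above the median gene and with trend and robust settings. Genes called there numbered 252, and 43 with the unmoderated model, 138 with only both groups, 94 at the stricter threshold and 148 to 323 with 1 array left out. In Mdr2-KO/IL6-KO against wild type, the 3 member calls became 0 with the unmoderated model, 6 with only both groups or without replicates 2 and 3, 1 at the stricter threshold and 2 to 6 with 1 array left out. The 836 genes called became 496, unmoderated, 342 at the stricter threshold and 464 to 989 with 1 array left out. Between the knockouts no member was called in any setting. The 1 gene called overall became 4 with only genes above the median gene, 2 with median centring, trend and robust settings or without replicates 2 and 3, 0 unmoderated and 1 to 5 with 1 array left out. Medians of all members and of the classes moved by less than the spread between replicates in all 285 comparisons. That spread was taken over all arrays, so it includes Mdr2-KO replicate 2 and is a loose bound where that array is left out. The median of all members ran from -0.29 to -0.17 in Mdr2-KO, from -0.16 to -0.05 in the double knockout and from 0.05 to 0.17 between them. Class medians changed sign for the microsomal and cytosolic genes between the knockouts (-0.29 to 0.23) and for the peroxisomal genes in Mdr2-KO (-0.08 to 0.02). In the double knockout, the Fgf21 and Pdk4 calls were lost with the unmoderated model (adjusted p = 0.0746 and 0.0592), and Fgf21 also missed the stricter threshold. The cause of these changes was not tested. No paired analysis was possible because the labels give no shared numbers, litters or days, and replicates were numbered in accession order. A change that exceeds the spread of 3 or 4 arrays by little cannot be resolved here.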
